A study of Homo sapiens with 21 samples.

Results

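The baseline expression of a pair of acute myeloid leukaemia lines was compared on control arrays, made from cells with no hairpin against SYK. MOLM-14 and HL-60 cells had each been transduced with shLuc, a hairpin directed at luciferase, an insect enzyme that human cells do not make. Puromycin at 1 µg/ml was applied from 48 hours after infection, and total RNA was taken on day 5 and hybridised to Affymetrix high-throughput arrays. Membership was set by the labels: every array labelled as luciferase control in either line was used, which gave 3 MOLM-14 and 3 HL-60 arrays, 6 of the 21 in the series. The other 15 arrays held U937 cells with shLuc and all 3 lines with either of 2 hairpins against SYK, the tyrosine kinase the study knocked down. By the labels' protocol the control transduction was done in triplicate. The 3 arrays of a group thus stand for separate transductions of 1 line, so SDs measure the spread between those transductions. SEs and p-values rest on a spread within groups estimated over all 21 arrays. Each leukaemia type was represented by 1 line.

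The control hairpin was the same in both lines, and its target, printed here because both groups carry it, was as follows.
shLuc target: cctaaggttaagtcgccctcg

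MOLM-14 is an established line from an acute monocytic leukaemia and has a known FLT3-ITD, an activating duplication within the gene of this receptor kinase, and a fusion of KMT2A with MLLT3. KMT2A fusions are known for keeping the HOXA genes and MEIS1 active. HL-60 is a line long used as a model of promyelocytes, the neutrophil precursors that fill primary granules with myeloperoxidase and serine proteases. It is known to carry extra copies of MYC. Monocytes and neutrophils share a precursor and many antimicrobial and phagocytic genes, so marker lists for the lineages overlap.

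Expression values were the authors' RMA intensities (robust multi-array average, which corrects background, equalises the distributions of the arrays and combines the probes of a probe set), taken to log2 here. The brightest probe set stood for each of 12165 genes. A level below is a log2 intensity and a difference is MOLM-14 minus HL-60, so that 1 unit is 2-fold, and levels of different genes are not compared. Across genes the 3 MOLM-14 arrays correlated pairwise at 0.997 to 0.998 and the 3 HL-60 arrays at 0.997 in each pair, while the 9 pairs across the lines lay between 0.949 and 0.951. RMA gives no call of presence. The dimmest 25% of genes lay below 3.07 in MOLM-14 and 3.12 in HL-60, where differences are compressed and a gene cannot be told from background. For a gene in or near that range in the dimmer line the size of a difference is uncertain, so it is given with no fold and, for those described array by array, beside its value after 16 was added to every intensity before log2.

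The lines differed widely. With limma's moderated test and a Benjamini-Hochberg adjusted p below 0.05 as the rule for calling a gene, 6012 of 12165 genes were called (49.4%), 2797 higher in MOLM-14 (23.0%) and 3215 higher in HL-60 (26.4%). A difference of at least 2-fold was met by 1292 of the called genes (10.6% of all tested), 819 higher in MOLM-14 (6.73%) and 473 higher in HL-60 (3.89%), and these genes are the ones counted below unless stated. At 4-fold or more there were 298 and 133, and at 16-fold or more 72 and 26. The median over all genes was -0.06 and the median size of a difference 0.24. The arrays of the lines did not overlap at all for 6978 genes (57.4%). Counts in the gene lists below stand beside these shares of all genes.

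The balance between the directions depended on scaling. HL-60 arrays had median intensities of 18.4 to 18.7 and MOLM-14 arrays of 19.8 to 20.1. Centring each array on its own median moved the median difference of all genes by -0.21, called 8291 genes of which 1959 were higher in MOLM-14 and 6332 in HL-60, and turned the 2-fold split to 633 against 747. The genes named below with differences of 1 or more kept their direction under that scaling. Among genes whose values are given array by array below, ELANE was the one whose arrays overlapped between the lines.

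**Figure D1:**
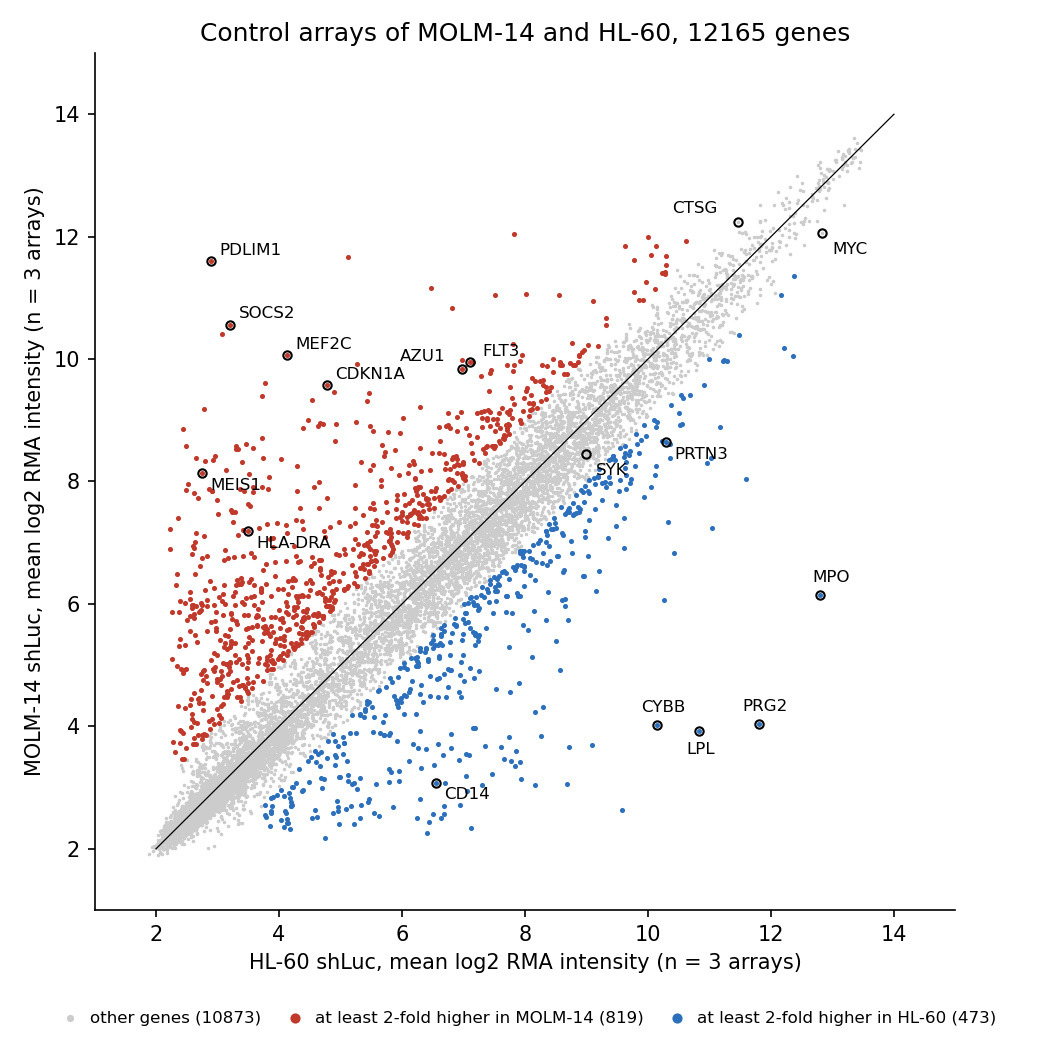
Mean log2 RMA intensity of 12165 genes in HL-60 (x axis) and MOLM-14 (y axis) with shLuc, 3 arrays each. Red and blue points are the 819 and 473 genes at least 2-fold higher in MOLM-14 and HL-60 with an adjusted p below 0.05, grey points the rest, the line marks equal levels, and the circled genes are named in the text.

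The genes tied to the study and to the known genetics of the lines stood as follows. FLT3, the receptor tyrosine kinase for FLT3 ligand, read 9.86, 10.07 and 9.91 on the MOLM-14 arrays and 7.11, 7.24 and 6.98 on the HL-60 arrays. All 3 MOLM-14 values were higher (2.84 ± 0.13 (SE), 7.17-fold, adjusted p = 7.38e-12), and in U937 the level was 4.48 ± 0.37 (SD, n = 3). SYK, the target of the study's hairpins, read 8.49, 8.42 and 8.44 in MOLM-14 and 8.908, 9.054 and 9.004 in HL-60. It was lower in MOLM-14 without overlap, by less than 2-fold (-0.54 ± 0.073 (SE), 1.45-fold, adjusted p = 7.34e-06). MYC, the transcription factor that drives growth programmes, read 12.03, 12.12 and 12.02 in MOLM-14 and 12.93, 12.71 and 12.87 in HL-60. It was also lower in MOLM-14 on every array, again under 2-fold (-0.78 ± 0.062 (SE), 1.71-fold, adjusted p = 1.07e-08). MEIS1, the homeobox partner of HOXA proteins, read 8.11, 8.14 and 8.17 in MOLM-14 and 2.60, 2.52 and 3.10 in HL-60, where it lay among the dimmest 25% of genes (5.40 ± 0.11 (SE), adjusted p = 3.61e-16, and 3.71 with 16 added). U937, a histiocytic line, had MEIS1 at 9.23 ± 0.01. HOXA9 was not analysed here.

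The 15 genes with the largest differences toward MOLM-14 ranged from 5.36 to 8.69, and in 11 of them the gene lay in the dimmest 25% of HL-60. PDLIM1, a LIM-domain protein of actin stress fibres, read 11.66, 11.59 and 11.54 in MOLM-14 against 2.94, 3.01 and 2.75 in HL-60 (8.69 ± 0.12 (SE), adjusted p = 2.45e-18, and 7.05 with 16 added). SOCS2, a feedback inhibitor of JAK-STAT signalling known to be induced by STAT5, read 10.60, 10.56 and 10.52 against 3.63, 3.20 and 2.79 (7.35 ± 0.15 (SE), adjusted p = 1.66e-16, and 5.91 with 16 added). Every MOLM-14 value of both genes exceeded every HL-60 value. Cytoskeletal and membrane genes included the tubulin gene TUBB6 (7.34), the membrane skeleton gene EPB41L2 (6.41), the motor MYO6 (5.45) and PTK2, the focal adhesion kinase (5.36). CD93, a receptor of early myeloid cells and endothelium, differed by 6.41, and RAB13, a GTPase of membrane traffic, by 5.84. GPX7, a peroxidase of the endoplasmic reticulum, differed by 5.73, the RNA-binding protein IGF2BP2 by 5.67 and KYNU, an enzyme of tryptophan breakdown, by 5.54. Among the 15 were also 2 genes best known from the nervous system, the transcription factor ZIC1 (5.46) and the peptide NPY (5.42). MEF2C, a transcription factor of monocytic and lymphoid precursors, stood at 5.93.

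Toward HL-60 the 15 largest ranged from -4.33 to -7.76, and 4 of these genes lay in the dimmest 25% of MOLM-14. PRG2, the major basic protein of eosinophil granules, read 11.82, 11.80 and 11.78 in HL-60 against 4.12, 3.94 and 4.07 in MOLM-14 (-7.76 ± 0.11 (SE), 217-fold, adjusted p = 1.91e-18, and -6.79 with 16 added). SERPINB10, a protease inhibitor of bone marrow, read 9.62, 9.57 and 9.56 against 2.46, 2.83 and 2.61 (-6.95 ± 0.094 (SE), adjusted p = 1.91e-18, and -5.14 with 16 added). Lipoprotein lipase, LPL, read 10.83, 10.89 and 10.77 against 3.71, 4.01 and 4.07 (-6.90 ± 0.12 (SE), 119-fold, adjusted p = 2.83e-17, and -5.87 with 16 added). The HL-60 arrays were higher throughout for each of these 3 genes. CYBB, the catalytic subunit of the phagocyte oxidase, differed by -6.13, and the myeloid lectin receptor CLEC5A by -5.61. ANPEP, the surface antigen CD13, differed by -5.12, the prostaglandin receptor PTGER2 by -4.50 and PTPRCAP, which binds the phosphatase CD45, by -4.49. The others were the GTPase RAB32 (-5.39), the co-chaperone DNAJC12 (-5.05), CYB5A (-4.79), the zinc finger repressor ZNF91 (-4.79), the calcium channel subunit CACNA2D3 (-4.43) and the tumour antigen PRAME (-4.33). MPO completes the 15 and is described with the granule genes.

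**Figure D2:**
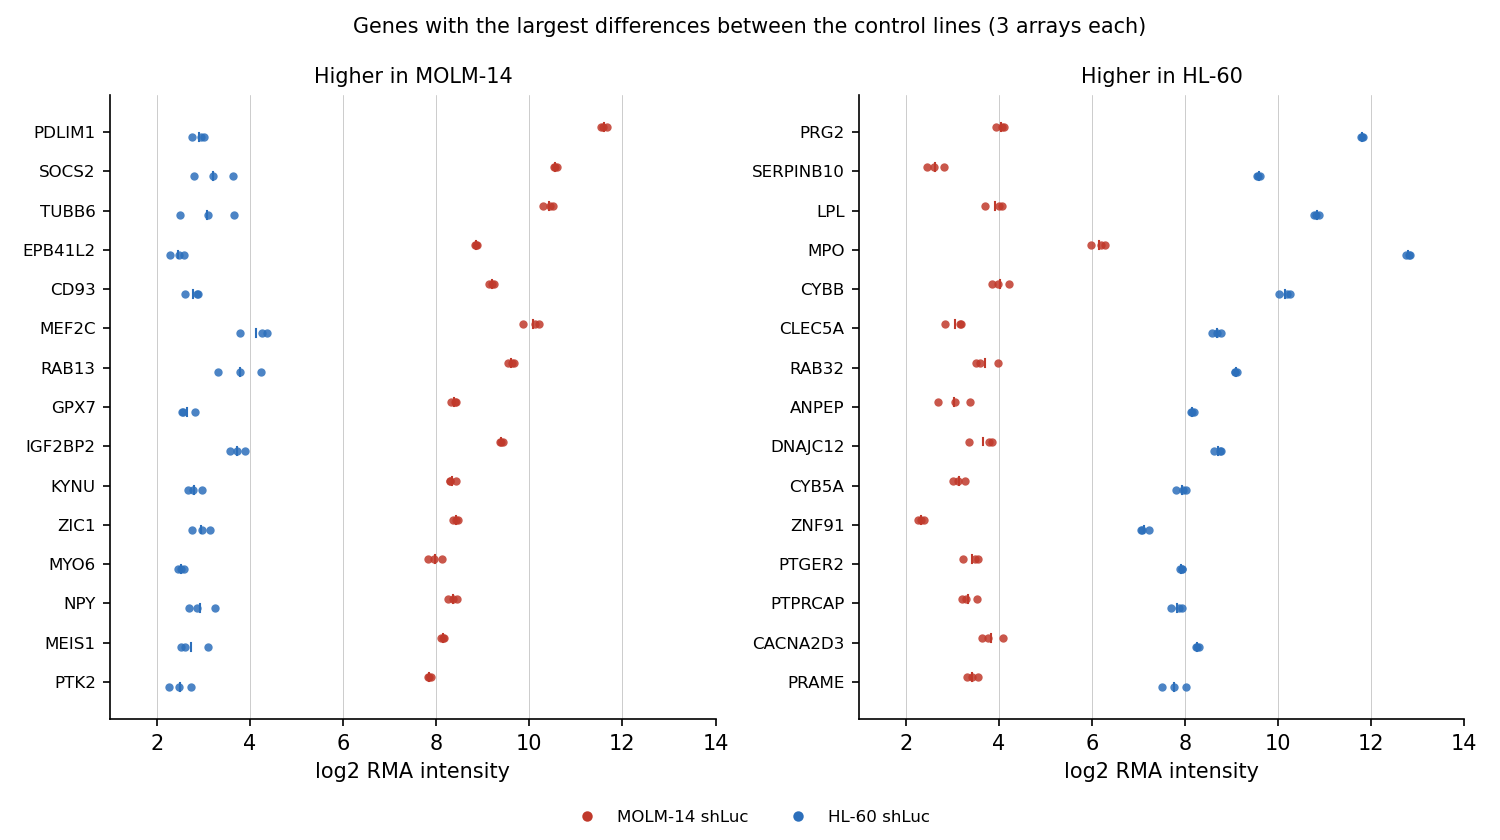
Log2 RMA intensity on each of the 3 MOLM-14 and 3 HL-60 control arrays for the 15 genes with the largest difference in each direction; points are arrays and ticks are means. Arrays of a line lie close together and no gene overlaps, which the rule for choosing these genes required.

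The labels' cell types were checked against marker sets. Of 8 promyelocyte markers 5 were at least 2-fold higher in HL-60 and 1, AZU1, in MOLM-14. Of 10 monocyte markers on the array, 2 were at least 2-fold higher in MOLM-14, CD36 (2.32) and IRF8 (2.49), and 1 in HL-60, CD14 (-3.47). The promyelocyte set thus lay mostly with HL-60, whereas the monocyte set did not divide by the labels. CSF1R, the receptor for macrophage colony-stimulating factor, was at 4.43 ± 0.13 in MOLM-14 and 4.07 ± 0.18 in HL-60 (SD, n = 3 each), with an adjusted p of 0.0676 by limma. VCAN, a proteoglycan of classical monocytes, was near the dimmest 25% in both, at 3.32 ± 0.20 and 3.43 ± 0.06. Markers of other cells were mostly dim: of the erythroid, megakaryocyte, and T and NK lists (13, 12 and 18 genes) none reached the 2-fold rule, with 4, 3 and 3 called by limma's adjusted p alone (30.8%, 25% and 16.7%, against 49.4% of all genes). Of 9 B cell markers 1 reached it (11.1%, near the 10.6% of all genes), IGLL1 (-1.20), and none without HL-60 replicate 2. HBB was at 3.81 ± 0.18 and 3.70 ± 0.23, PF4 at 3.36 ± 0.12 and 3.65 ± 0.26, CD3E at 2.84 ± 0.06 and 2.96 ± 0.11, MS4A1 at 3.25 ± 0.02 and 3.19 ± 0.27 and EPCAM at 2.30 ± 0.13 and 2.27 ± 0.14 (SD, n = 3 each). Summed intensity over the 17 epithelial and stromal markers lay between 436 and 472 on the MOLM-14 arrays and between 155 and 162 on the HL-60 arrays. Such a sum is weighted to the brightest genes, and the median difference of the list was -0.002. Its 2 genes past the rule (11.8%, near the 10.6% of all genes) were the keratin KRT18 (4.32) and the actin ACTA2 (3.21).

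Primary granule genes leaned to HL-60, but not as a block. Of 24 measured, 12 were at least 2-fold higher in HL-60 and 3 in MOLM-14 (median -0.97, against -0.06 over all genes). MPO, which makes hypochlorous acid and defines the azurophil granule, read 12.82, 12.74 and 12.85 in HL-60 and 5.98, 6.28 and 6.19 in MOLM-14, with no overlap (-6.65 ± 0.11 (SE), 101-fold, adjusted p = 2.92e-17). CEBPE, the C/EBP factor of granulocyte maturation, differed by -4.24 and MS4A3, a membrane protein of promyelocytes, by -3.56. BPI (-2.57), the defensin DEFA4 (-2.49) and the cystatin CST7 (-2.28) lay on the same side.

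A cluster of adjacent granule genes on chromosome 19 was divided. In the reference order AZU1, PRTN3, ELANE and CFD follow each other, and their differences were 2.85, -1.65, 0.00 and 1.36. AZU1, azurocidin, read 9.88, 9.79 and 9.84 in MOLM-14 and 7.11, 6.94 and 6.90 in HL-60, and was higher in MOLM-14 on every array (2.85 ± 0.066 (SE), 7.23-fold, adjusted p = 1.02e-15). PRTN3, proteinase 3, read 8.72, 8.61 and 8.59 in MOLM-14 and 10.27, 10.32 and 10.27 in HL-60, the reverse order (-1.65 ± 0.096 (SE), 3.14-fold, adjusted p = 1.84e-10). ELANE, neutrophil elastase, read 11.67, 11.52 and 11.58 in MOLM-14 and 11.62, 11.52 and 11.62 in HL-60, which overlapped (SE 0.061, adjusted p = 0.999 by limma), with a sign that changed if arrays were weighted or centred, or without HL-60 replicate 2 or MOLM-14 replicate 1. CFD, complement factor D, read 10.82, 10.58 and 10.63 in MOLM-14 and 9.32, 9.31 and 9.33 in HL-60 and was higher in MOLM-14 (1.36 ± 0.078 (SE), 2.56-fold, adjusted p = 1.59e-10). CTSG, cathepsin G, was higher in MOLM-14 by less than 2-fold (0.77), and the ribonuclease RNASE2 by 1.31. Levels in U937 were 9.52 ± 0.04 for AZU1, 8.62 ± 0.03 for PRTN3 and 12.47 ± 0.01 for ELANE.

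The 250 bases before the annotated starts of 3 genes of this cluster and of MS4A3 are printed because the neighbouring genes had opposite differences, and they come from RefSeq's GRCh38.p14 promoter table. Capitals mark matches on either strand to GAGGAA (PU.1 type), TTGCNNAA (C/EBP type) or TGTGGT (RUNX type), which occur in 23.57%, 9.05% and 10.97% of 35093 windows of the same length. None of the matches overlapped another.
AZU1, chr19:827587-827836, strand +: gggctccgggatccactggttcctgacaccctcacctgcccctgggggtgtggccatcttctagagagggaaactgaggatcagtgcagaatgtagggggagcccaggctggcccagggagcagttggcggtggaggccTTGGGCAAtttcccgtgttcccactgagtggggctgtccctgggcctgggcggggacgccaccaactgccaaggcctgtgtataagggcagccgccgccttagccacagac
PRTN3, chr19:840749-840998, strand +: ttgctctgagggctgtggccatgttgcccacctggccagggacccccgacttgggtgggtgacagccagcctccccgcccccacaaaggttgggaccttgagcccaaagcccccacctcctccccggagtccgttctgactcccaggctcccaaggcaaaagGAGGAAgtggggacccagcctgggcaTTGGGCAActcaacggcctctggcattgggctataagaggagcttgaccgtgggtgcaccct
CFD, chr19:859414-859663, strand +: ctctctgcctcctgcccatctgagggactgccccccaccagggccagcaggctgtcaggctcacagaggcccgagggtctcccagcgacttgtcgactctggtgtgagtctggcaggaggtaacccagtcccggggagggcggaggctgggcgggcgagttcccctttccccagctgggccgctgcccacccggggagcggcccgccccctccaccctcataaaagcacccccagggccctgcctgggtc
MS4A3, chr11:60056415-60056664, strand +: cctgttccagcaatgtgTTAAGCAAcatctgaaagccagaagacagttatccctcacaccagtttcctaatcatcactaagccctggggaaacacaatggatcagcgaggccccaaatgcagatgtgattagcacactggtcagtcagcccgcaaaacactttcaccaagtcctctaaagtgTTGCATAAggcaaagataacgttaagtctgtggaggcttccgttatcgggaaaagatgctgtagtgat

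A C/EBP-type match began 111 bases before the start of AZU1 and another 62 bases before that of PRTN3, which also held a PU.1-type match at 88. MS4A3 had C/EBP-type matches at 233 and 68, and the CFD window had none of the 3 motifs. AZU1 and PRTN3, whose differences had opposite signs, thus each held 1 C/EBP-type match. The matches are letters in a window and were not tested as binding sites.

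Late neutrophil genes went one way: of 24 measured, 9 were at least 2-fold higher in HL-60 and none in MOLM-14 (median -0.43). Many were dim, as 16 of the 24 lay below the median level of genes in both lines. With 16 added to every intensity, or with the dimmest 40% of genes left out, 6 passed the rule, all toward HL-60. By limma's adjusted p alone 16 were called (66.7%, against 49.4% of all genes), all higher in HL-60. Haptoglobin, HP (-3.92), the formyl peptide receptor FPR1 (-3.85), arginase ARG1 (-3.93), CEACAM6 (-3.17) and the interleukin-8 receptor CXCR2 (-2.61) were among those past the 2-fold rule. CSF3R, the receptor for granulocyte colony-stimulating factor, was just past the rule (-1.02).

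Monocyte and macrophage genes split almost evenly, with 11 of 41 at least 2-fold higher in MOLM-14 and 10 higher in HL-60 (9 and 13 if arrays were centred). CD14, the co-receptor for lipopolysaccharide, read 6.48, 6.60 and 6.56 in HL-60 and 3.13, 3.27 and 2.85 in MOLM-14 (-3.47 ± 0.13 (SE), adjusted p = 7.44e-13, and -2.16 with 16 added). The calprotectin genes S100A8 and S100A9 (-2.32 and -2.99), S100A12 (-2.47), MNDA (-3.81) and the ITAM adaptors FCER1G (-3.64) and TYROBP (-1.53) were also higher in HL-60. On the MOLM-14 side stood thrombomodulin, THBD, at 8.22, 8.15 and 8.20 against 3.17, 2.93 and 3.33 in HL-60 (5.04 ± 0.16 (SE), adjusted p = 4.67e-14, and 3.63 with 16 added). The fractalkine receptor CX3CR1 (4.23), MS4A4A (3.41) and IRF8, a factor that directs precursors to monocytes (2.49), were higher there too. The summed intensity of the list lay between 12430 and 12558 on the MOLM-14 arrays and between 17505 and 17543 on the HL-60 arrays. Such a sum is weighted to the brightest genes, and the median difference of the list was 0.006. The Fc receptor FCGR2A differed by 1.33, and FCGR1A (0.68), KLF4 (0.78), ITGAM (0.45) and FCN1 (-0.89) were called below 2-fold. Fc receptor genes have near-identical copies that probes may share, and another probe set for ITGAM differed in the other direction.

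**Figure D3:**
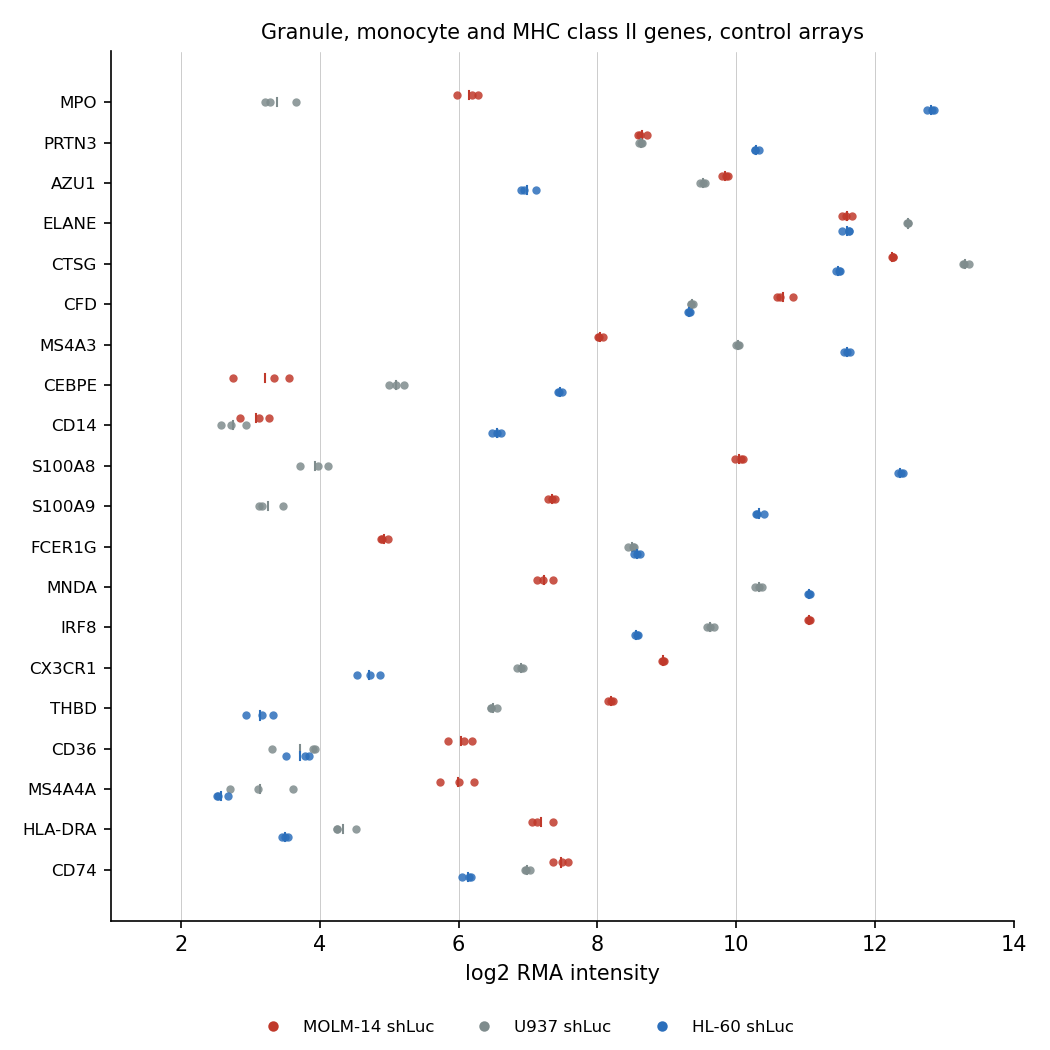
Log2 RMA intensity of 20 granule, monocyte and MHC class II genes on the control arrays of MOLM-14, U937 and HL-60, 3 each; points are arrays and ticks are means. MPO, MS4A3, CD14 and S100A9 are highest in HL-60, AZU1, IRF8, THBD and HLA-DRA in MOLM-14, and the ELANE values of MOLM-14 and HL-60 overlap.

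MHC class II genes, which present extracellular antigen, were higher in MOLM-14 wherever they passed the rule: 6 of 20 measured, and none in HL-60 (median 0.52). HLA-DRA read 7.06, 7.14 and 7.36 in MOLM-14 and 3.50, 3.54 and 3.45 in HL-60 (3.69 ± 0.13 (SE), adjusted p = 3.98e-13, and 2.565 with 16 added). HLA-DRB1 (2.37), HLA-DMA (2.12), HLA-DPA1 (2.01) and the invariant chain CD74 (1.34) went the same way. CIITA, the master coactivator of these genes, was dim in both lines, at 3.24 ± 0.10 and 3.11 ± 0.18 (SD, n = 3 each). Another CIITA probe set, at 3.29 in MOLM-14 and 2.79 in HL-60, was called higher in MOLM-14 by limma (0.50), and a further one was not called (-0.13). Probes for HLA genes can read several of them, and another probe set for HLA-DPA1 differed in the other direction. Class I genes were nearer to even. HLA-B (-0.58) and B2M (-0.50) were called as lower in MOLM-14 below 2-fold. TAP2 was lower in MOLM-14 (-2.10), its partner TAP1 was at 6.58 ± 0.05 and 6.48 ± 0.06 with no call (SD, n = 3 each), and the immunoproteasome subunit PSMB9 was higher in MOLM-14 (1.25). ERAP1, a peptide-trimming enzyme, differed by 4.01, and by -1.09 in another probe set.

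Interferon response genes passed the rule in MOLM-14 for 13 of 38 and in HL-60 for 2 (median 0.50). These became 9 and 2 if arrays were centred, with a median of 0.29, and 9 and 1 with 16 added. TRIM22 (3.02), XAF1 (2.75), the RNA sensor RIGI (2.26), IFITM2 (2.18) and IFITM1 (2.17) led toward MOLM-14, with the factors IRF1 (1.499) and IRF7 (1.19). The enzyme UBE2L6 was higher in HL-60 (-2.15). The list did not move as a whole: MX1 was at 3.57 ± 0.12 and 3.52 ± 0.15, and IFIT1 at 2.94 ± 0.24 and 2.86 ± 0.03 (SD, n = 3 each), with no call and with a sign that changed if arrays were centred.

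The HOXA and KMT2A target list had 10 measured genes of 22, with HOXA2 the only HOXA gene among them. Of these 10, 5 were at least 2-fold higher in MOLM-14 and none in HL-60 (median 0.81). Beside MEIS1 and MEF2C, PBX3, a cofactor of HOX proteins, read 9.46, 9.53 and 9.33 in MOLM-14 and 5.50, 5.55 and 5.33 in HL-60 (3.98 ± 0.09 (SE), 15.8-fold, adjusted p = 7.07e-16). The demethylase-family gene JMJD1C (2.16) and the repressor ZEB2 (1.08) followed, and MYB (0.36) and CDK6 (0.54) were called below 2-fold. None of 9 HOXB genes was called by limma, and all 9 lay below the median level of genes in both lines.

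Of 50 haematopoietic transcription factors 9 passed the rule toward MOLM-14 and 5 toward HL-60, which became 7 and 7 if arrays were centred and 8 and 2 if the probe sets of a gene were averaged. EGR1, an immediate early factor, read 9.53, 7.78 and 7.85 in MOLM-14 and 3.87, 3.72 and 3.65 in HL-60 (4.64 ± 0.43 (SE), adjusted p = 8.14e-08, and 3.58 with 16 added), with MOLM-14 replicate 1 well above the other arrays of the line. SOX4 was higher in MOLM-14 (2.05) and GATA2 in HL-60 (-1.86). Factors shared by granulocytes and monocytes differed by less than 2-fold: CEBPA by 0.17 (adjusted p = 0.0296 by limma, with the sign turned if arrays were centred) and SPI1, which encodes PU.1, by -0.56. GFI1 differed by -0.51. CEBPB (-0.82) and CEBPD (-0.93) were higher in HL-60 below 2-fold. RUNX1 differed by 0.67, with another probe set in the other direction.

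Receptors for growth factors and cytokines divided 6 to 7 among 41. IL3RA, the interleukin-3 receptor alpha chain, read 7.13, 7.13 and 7.36 in MOLM-14 and 3.31, 3.61 and 3.35 in HL-60 (3.79 ± 0.14 (SE), adjusted p = 3.29e-13, and 2.62 with 16 added). FGFR1 (2.82), AXL (2.01), IL7R (1.95) and CSF2RA, the GM-CSF receptor alpha chain (1.64), were higher in MOLM-14 as well. The common beta chain that IL3RA and CSF2RA share, CSF2RB, was higher in HL-60 (-1.58), as was IL1R1 (-2.03). KIT was at 4.27 ± 0.13 and 4.03 ± 0.09 with no call (SD, n = 3 each).

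Among 42 components of SYK signalling 5 passed the rule in MOLM-14 and 4 in HL-60 (3 and 4 if arrays were centred). The adaptors FCER1G and TYROBP, whose phosphorylated motifs recruit SYK, were higher in HL-60, with the SRC-family kinase FGR (-2.45) and RASGRP2 (-2.09). The adaptor BLNK (2.90), PLCG2 (1.17) and YES1 (1.38) were higher in MOLM-14, and LYN was called below 2-fold (0.73).

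Cell cycle genes past the rule were mostly G1 regulators. Of 25 G1 genes 6 passed the rule in MOLM-14 and 2 in HL-60 (5 and 3 if arrays were centred): CCND3 (1.80), RB1 (1.41) and CCNE2 (1.58) were higher in MOLM-14, and CDKN2A (-3.08, and -1.58 with 16 added) and CCNA1 (-1.86) in HL-60, with CCND2 called below 2-fold (0.71). CDKN1A, the p21 inhibitor of cyclin-dependent kinases, read 9.82, 9.37 and 9.52 in MOLM-14 and 5.03, 4.55 and 4.75 in HL-60 (4.79 ± 0.13 (SE), 27.7-fold, adjusted p = 4.97e-15). CDKN2A, an inhibitor of CDK4 and CDK6, read 5.65, 5.59 and 5.61 in HL-60 and 2.26, 2.71 and 2.64 in MOLM-14, where it lay in the dimmest 25%. Of 39 replication genes 1 passed the 2-fold rule, MCM10 (1.28), and of 33 mitosis genes 2 did, KIF20A (1.12) and CCNB1 (1.01). With arrays centred 1 replication gene was past the rule in MOLM-14 and 2 in HL-60, and no mitosis gene was. These counts moved with single arrays: without MOLM-14 replicate 3 there were 2 replication genes, and without HL-60 replicate 3 or MOLM-14 replicate 1 there was 1 mitosis gene.

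In the MYC network, 22 genes, and in ribosome biogenesis, 35 genes, none reached 2-fold with an adjusted p below 0.05. By limma's adjusted p alone 13 and 24 were called (59.1% and 68.6%, against 49.4% of all genes). The called genes went both ways, with 5 of the MYC network higher in MOLM-14 and 8 in HL-60, and 7 and 17 of ribosome biogenesis. With arrays centred the splits were 1 and 16 and 3 and 25. Without MOLM-14 replicate 3 there was 1 ribosome biogenesis gene at 2-fold. MAX, the partner of MYC, differed by -0.81 and ODC1, an enzyme of polyamine synthesis and a MYC target, by -0.71.  The nucleolar genes NCL and NPM1 were not called, at 11.88 ± 0.03 and 12.87 ± 0.02 in MOLM-14 and 11.86 ± 0.01 and 12.93 ± 0.03 in HL-60 (SD, n = 3 each). Of 26 ribosomal protein genes 13 were called, near the 49.4% of all genes, 11 higher in MOLM-14 and 2 in HL-60 with none at 2-fold. If arrays were centred the split turned to 3 against 12 and their median of 0.12 became -0.09, so no direction is given for them.

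Adhesion genes passed the rule in MOLM-14 for 7 of 31 and in HL-60 for 3 (7 and 5 if arrays were centred). ICAM4 (4.71), ICAM1 (3.07), ICAM2 (2.11), CD9 (2.24) and CD44 (1.46) were higher in MOLM-14, and CD48 (-2.98) and CD47 (-1.61) in HL-60. Of 31 chemokines and chemoattractant receptors 5 were higher in HL-60 and 2 in MOLM-14 (7 and 1 if arrays were centred), among them FPR1, the complement receptor C3AR1 (-2.91) and CCL2 (-2.87). Interleukin-8, CXCL8, differed by -4.20 in its brightest probe set and by -3.73 in another, while 7 further probe sets, at or below 3.35 in both lines, were not called. The average of all gave -0.89. S100 and annexin genes were split by member: ANXA4 (4.23), S100A10 (3.01), ANXA2 (2.80) and S100A6 (1.54) were higher in MOLM-14 and ANXA1 (-2.15) with the calprotectin genes in HL-60. S100A10 and ANXA2 form a complex. ANXA2 has near-identical pseudogenes that its probes may also read.

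Of 34 surface antigens used to type myeloid cells 8 passed the rule in MOLM-14 and 3 in HL-60 (8 and 6 if arrays were centred). NCAM1, the antigen CD56, read 8.48, 8.54 and 8.56 in MOLM-14 and 3.38, 3.19 and 3.33 in HL-60 (5.23 ± 0.085 (SE), adjusted p = 1.82e-17, and 3.90 with 16 added) in its brightest probe set. Of its 4 other probe sets 1 was called, at 1.90, and 3 dim ones were not, so that the average of all gave 1.48. CD34 was at 3.95 ± 0.15 and 4.10 ± 0.05 and CD38 at 5.97 ± 0.10 and 5.66 ± 0.16 with no call (SD, n = 3 each), and FUT4, which makes the CD15 sugar, was lower in MOLM-14 below 2-fold (-0.86). Apoptosis genes gave 3 past the rule among 29 (10.3%, near the 10.6% of all genes): BIK, higher in MOLM-14 (2.37), and BCL2A1 (-2.50) and CFLAR (-1.20), higher in HL-60. BCL2 (0.47), MCL1 (0.76) and BAX (0.51) were called below 2-fold. Glycolysis genes gave 4 higher in MOLM-14 and 2 in HL-60 of 22 (2 and 2 if arrays were centred). PFKM, the muscle phosphofructokinase, read 7.37, 7.34 and 7.35 in HL-60 and 3.65, 3.61 and 3.77 in MOLM-14 (-3.68 ± 0.1 (SE), adjusted p = 1.59e-14, and -2.64 with 16 added). PFKP, the platelet form, was higher in MOLM-14 (1.05), as was the glucose transporter SLC2A3 (2.15). PKM was higher in HL-60 (-1.41), and GAPDH differed by -0.12 (adjusted p = 0.0456 by limma).

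The size of some named differences rested on the probe set chosen or on dim signal. Of the 177 named genes 133 were called at 2-fold, and 111 of these stayed at 2-fold or more under every alternative that gave a value. Averaging the probe sets of a gene in place of taking the brightest took 11 of them under 2-fold, CFLAR (-0.69), CXCL8 (-0.89), ERAP1 (0.66), FGFR1 (0.85), GATA2 (-0.87), HLA-DPA1 (0.77), PKM (-0.76), RB1 (0.90), TAP2 (-0.64), YES1 (0.87) and ZEB2 (0.49). It lowered 10 others by more than 1.5 times, ACTA2 (1.602), AXL (1.12), CDKN2A (-1.21), CYBB (-3.39), FPR1 (-1.93), HP (-1.82), IL1R1 (-1.06), KYNU (2.62), NCAM1 (1.48) and RASGRP2 (-1.16). Adding 16 to every intensity before log2 took 9 under 2-fold, ALDOC (0.92), AXL (0.94), CCNB1 (0.97), CSF3R (-0.72), IGLL1 (-0.54), IL1R1 (-0.85), IRF7 (0.83), PFKFB3 (0.97) and ZEB2 (0.94). It lowered 26 by more than 1.5 times, among them MYO6 (3.61), PTK2 (3.51), ZNF91 (-2.88) and ARG1 (-2.28). Each of these genes kept its direction under both alternatives. Centring arrays took 7 under, ZEB2, KIF20A, CCNB1, PFKFB3, PFKP, IRF7 and PLCG2, with differences of 0.80 to 0.98.

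**Figure D4:**
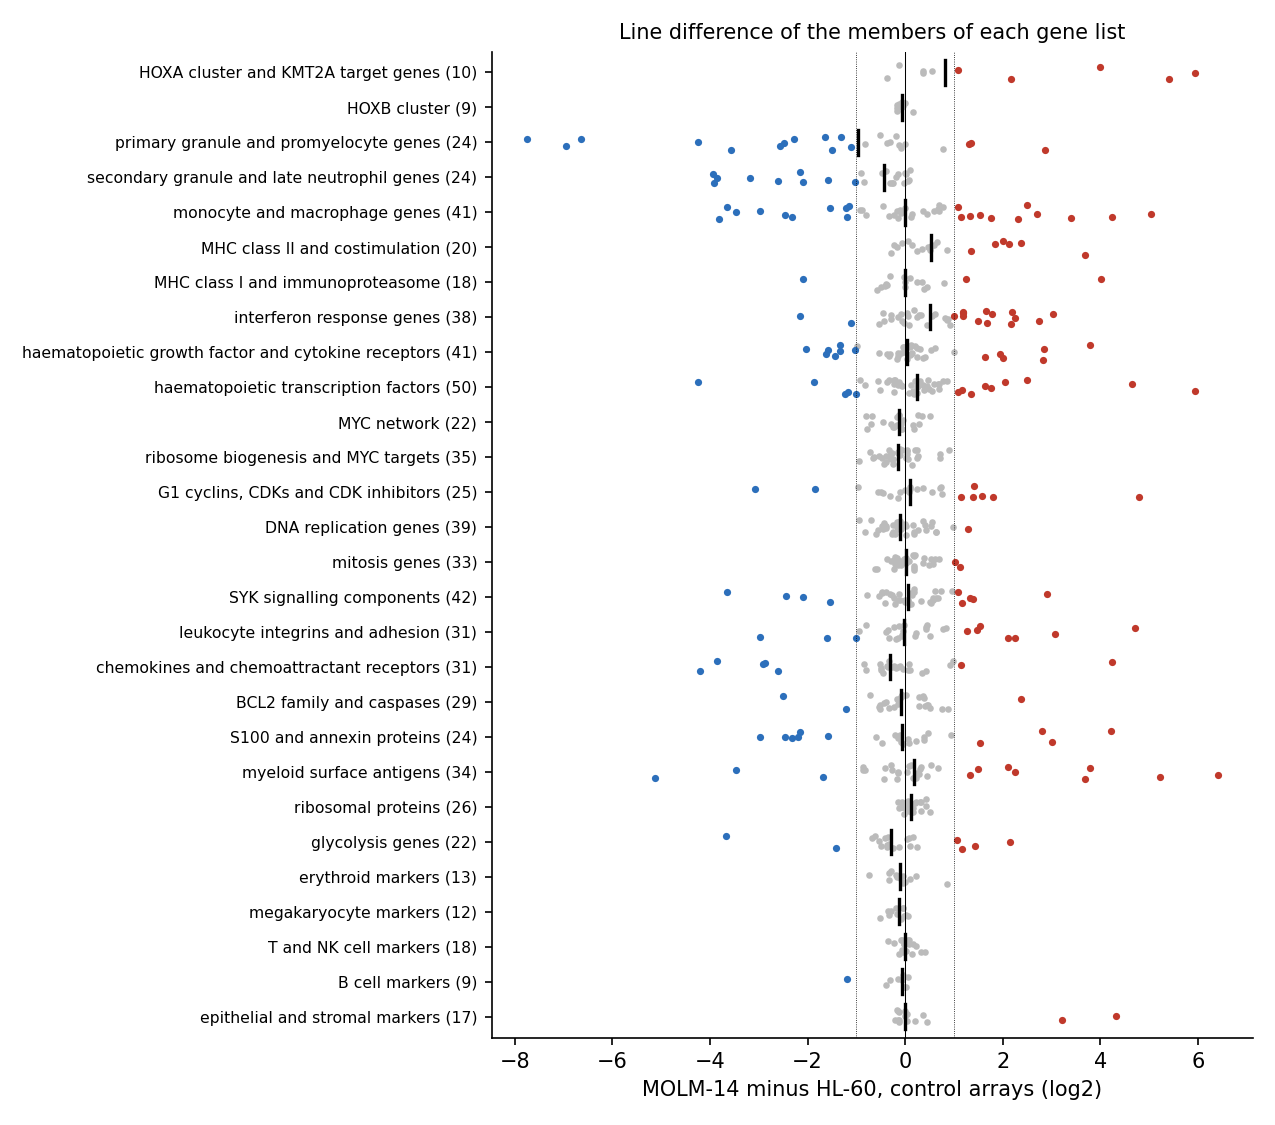
Difference between the control lines (MOLM-14 minus HL-60, log2) for each measured member of 28 gene lists, with the number of members in brackets. Points are genes, red and blue at 2-fold or more with an adjusted p below 0.05, black bars are medians and dotted lines mark 2-fold. Late neutrophil genes past the rule lie only on the HL-60 side and MHC class II genes only on the MOLM-14 side, monocyte genes lie on both, and ribosomal proteins stay within 2-fold.

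The same lines with SYK hairpins gave a further comparison, 2 arrays per line and hairpin. Their values do not enter the control difference itself, but all arrays share 1 estimate of the spread. With shSYK_1, 5200 genes differed between the lines (42.7%) and with shSYK_2, 5746 (47.2%), of which 1264 (10.4% of all tested) and 1444 (11.9%) differed by at least 2-fold. Of the 1292 genes of the control comparison 1284 had the same sign with shSYK_1 (99.4%) and 1281 with shSYK_2 (99.1%), and 1240 were called with the same sign with both. Differences of at least 2-fold with both were kept by 894. For genes called under 2-fold the same sign was found for 91.25% with shSYK_1 and 90.85% with shSYK_2. For genes not called on the control arrays the shares were 62.36% and 63.56%. MPO stood at -6.63 and -7.25, PDLIM1 at 8.74 and 8.31, FLT3 at 2.91 and 3.01 and AZU1 at 3.36 and 2.52 with shSYK_1 and shSYK_2. The rule that named MPO and PDLIM1 required the same sign with both hairpins. None of these 4 genes had a called change from its control difference. The labels of 1 HL-60 array assigned to shSYK_2 disagree about its hairpin. Leaving it out called 6288 genes in the control comparison, which it enters only through the spread. The shSYK_2 differences, and the changes that use them, are not given without it. Of the 2 HL-60 arrays with shSYK_2, replicate 1 had an upper quartile intensity of 122.3 and replicate 2 of 135.9. The shSYK_2 differences are thus less certain.

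Some differences did change with the hairpins. The mean of both hairpin differences minus the control difference passed the adjusted p for 1032 genes (8.48%), among them 312 of the 1292. The control difference enters this change, so genes picked for a large control difference are not an independent sample for it. CCNA1, cyclin A1, went from -1.86 to 0.65 and -0.32, a change of 2.02 (adjusted p = 2e-09 by limma). CD14 went from -3.47 to -6.24 and -5.29 (-2.30, adjusted p = 5.6e-07), and FCER1G from -3.64 to -5.59 and -5.31 (-1.81, adjusted p = 2e-09). ANXA2 fell toward 0, from 2.80 to 1.20 and 0.76 (adjusted p = 2e-09). The difference of SYK itself widened from -0.54 to -0.86 and -1.29 (-0.53, adjusted p = 0.00217).

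**Figure D5:**
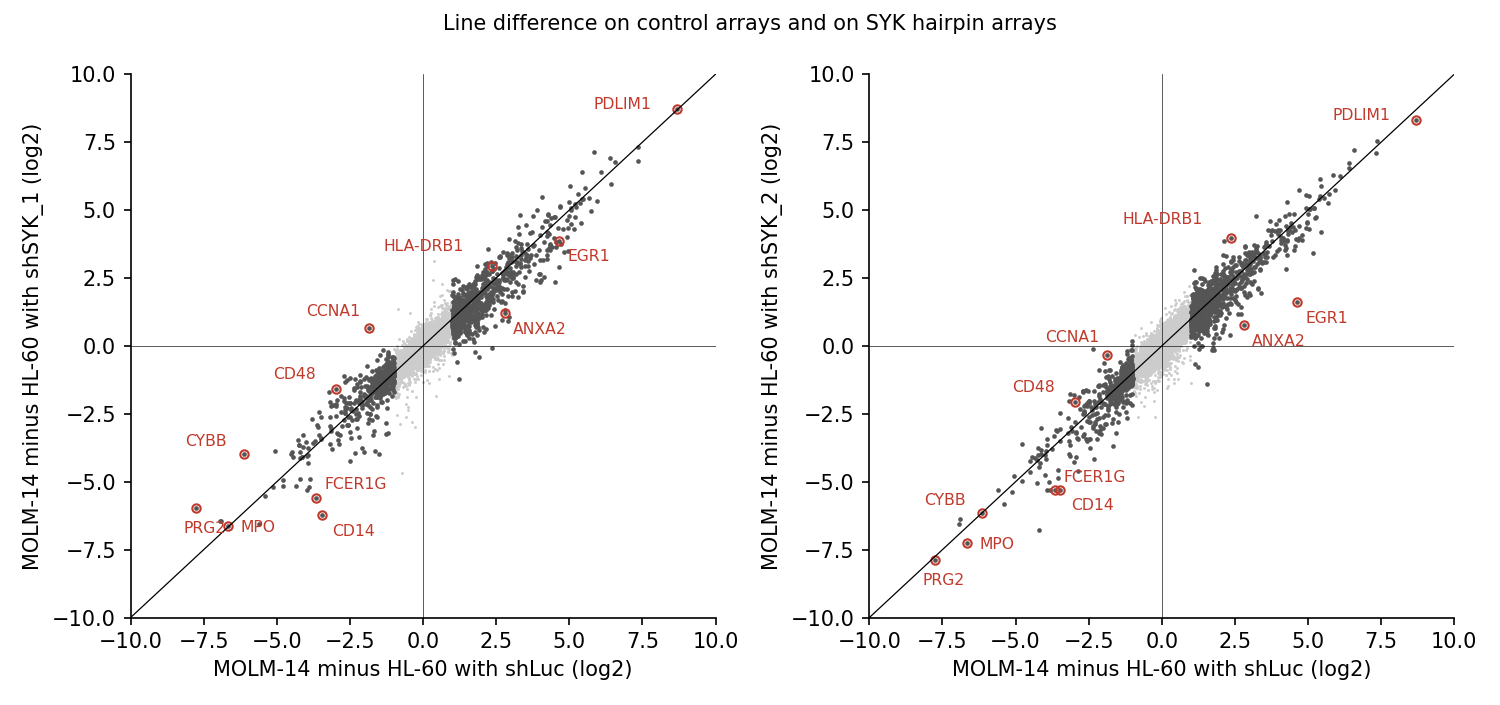
Difference between the lines (MOLM-14 minus HL-60, log2) with shLuc (x axis, 3 arrays per line) against that with shSYK_1 (left) or shSYK_2 (right; 2 arrays per line each, y axis). Dark points are the 1292 genes of the control comparison at 2-fold or more, grey points the rest, and the line marks equality. MPO and PDLIM1 lie near the line, whereas CCNA1, CD14 and ANXA2 lie off it.

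U937 with shLuc, described without a test, was near MOLM-14 for some genes and near HL-60 for others. Of the 819 genes higher in MOLM-14 its level was nearer MOLM-14 for 414 and nearer HL-60 for 405, and of the 473 higher in HL-60 it was nearer MOLM-14 for 228 and nearer HL-60 for 245. It lay between the lines for 419 and 260. PDLIM1, at 2.74 ± 0.24 in U937, was near HL-60, CD93, at 11.57 ± 0.07, was above both lines, and CLEC5A, at 8.17 ± 0.06, was near HL-60 (SD, n = 3 each).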

How the data were processed

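RNA of 21 samples was measured on Affymetrix arrays, 1 array each. The deposited values are intensities made with RMA by the authors, per the submitters' processing notes. Its version is not given in the sources used here. Values ran from 3.26 to 12878 over the 6 control arrays, so the scale is linear, although log2 values had been planned for, and log2 was taken here with no pseudocount. Of 22277 probe sets 19724 had 1 gene symbol in the platform annotation, 568 several and 1923 none, beside 62 controls. Symbols were updated by gene ID for 19707 and kept for 17. Each of 12165 genes was represented by its brightest probe set on average.

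A model of 9 group means over the 21 arrays was estimated in limma 3.58.1 (R 4.3.3; 12 residual and 4.09 prior degrees of freedom), with Benjamini-Hochberg adjustment over all genes, and was tested on simulated data. The U937 and hairpin arrays entered the control comparison only through the estimate of spread. The 28 gene lists (687 of 766 genes measured) and the comparison itself were chosen with earlier results of these data known. Genes named were FLT3, SYK, MYC, HOXA9, MEIS1 and MPO, the 15 largest differences in each direction among called genes without overlap and with the same sign with both hairpins, up to 6 a list by size, and further list members chosen after their values were seen. XIST and Y-linked genes were left out of the largest differences. A further list is not reported here. Alternatives changed the arrays fitted, probe set rule, scaling, pseudocount, filter, prior, weights and size rule, added the replicate number as a block, or left out each control array.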

Additional observations from a re-analysis of the deposited data

Results flagged for a closer look

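Of the 177 genes examined one by one, 66 had a line difference on the SYK hairpin arrays that differed from that on the control arrays by limma, at adjusted p-values of 0.0497 or less over all genes, against 1032 of all 12165 genes (8.48%). Most of the 177 were chosen by the size of their control difference, which enters the change tested, so the shares are not comparable. There were 41 negative changes and 25 positive. Each value below is the mean of both hairpin differences minus the control difference (MOLM-14 minus HL-60, log2), and the causes were not tested. The HL-60 array with conflicting labels was kept in these values. In 63 genes both hairpin differences lay on the same side of the control difference. In 3 they did not: PRG2 went from -7.76 to -5.96 with shSYK_1 and -7.89 with shSYK_2, CYBB from -6.13 to -3.98 and -6.14, and ACTA2 from 3.21 to 3.04 and 4.79.

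Genes higher in HL-60 on the control arrays whose mean change was negative were these. CD14, the lipopolysaccharide co-receptor, changed by -2.30, FCER1G by -1.81, IL1R1 by -1.44, HP by -1.33, FCN1 by -1.29 and CCL2 by -1.23. FGR changed by -1.12, FPR1 by -1.09, CSF3R by -0.67, RASGRP2 by -0.67, CEACAM6 by -0.63 and CEBPB by -0.57. SYK changed by -0.53, C3AR1 by -0.52 and CSF2RB by -0.49.

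Genes higher in HL-60 on the control arrays whose mean change was positive were these. CCNA1, cyclin A1, changed by 2.02, CD48 by 1.16, CYBB by 1.07, UBE2L6 by 1.03, DEFA4 by 0.88 and PRG2 by 0.84. DNAJC12 changed by 0.73, SERPINB10 by 0.45, BCL2A1 by 0.39 and PTGER2 by 0.39.

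Genes higher in MOLM-14 on the control arrays whose mean change was negative were these. EGR1, the immediate early factor, changed by -1.90, ANXA2 by -1.82, MS4A4A by -1.32, IL7R by -1.28, CD36 by -1.14 and SLC2A3 by -1.11. ICAM4 changed by -0.84, CCNE2 by -0.82, CX3CR1 by -0.80, ANXA4 by -0.79, S100A6 by -0.75 and BLNK by -0.75. CCND3 changed by -0.72, S100A10 by -0.72, ITGAM by -0.70, KLF4 by -0.69, CDKN1A by -0.69 and MYO6 by -0.65. CD74 changed by -0.64, CSF2RA by -0.61, CD44 by -0.60, IRF1 by -0.57, IRF7 by -0.54 and FCGR2A by -0.42. IRF8 changed by -0.41 and LYN by -0.38.

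Genes with a control difference above 0 whose mean change was positive were these. HLA-DRB1, an MHC class II chain, changed by 1.09, RAB13 by 0.87, NPY by 0.85, CD38 by 0.75, IFIT1 by 0.73 and YES1 by 0.70. ACTA2 changed by 0.70, ICAM2 by 0.62, CTSG by 0.59, BIK by 0.56, PFKP by 0.41 and BAX by 0.38. MYB changed by 0.37, CD93 by 0.33 and ELANE by 0.30.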

How the results depend on the processing

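There were 19 alternatives, and all but limma's treat were applied to single genes. In every one that gave a value, 154 of the 177 named genes kept their direction and their side of the adjusted p threshold, without regard to the 2-fold size. These included all 30 genes with the largest differences. Those 30 were picked as called, large and without overlap, so this outcome was largely set by the choice. Of 626 counts of calls, 607 stayed within 1.5 times. That score took a count of 0 that stayed 0 as unchanged and ignored the direction of the calls. Of 133 named genes called at 2-fold, 22 fell under 2-fold in at least one alternative, 11 with probe sets averaged, 9 with 16 added, 7 with arrays centred and IRF7 also with quantile normalisation repeated; CSF3R, IGLL1 and CCNB1 also did so without 1 control array. Testing against a 2-fold size with limma's treat left 849 genes in place of 1292, 9 transcription factors and 0 each of replication, mitosis and B cell genes. Centring arrays gave 1 MYC network gene, 1 ribosome biogenesis gene, 3 replication genes and 0 mitosis genes at 2-fold. Adding 16 before log2 left 1 mitosis gene and 0 B cell markers, leaving out the dimmest 40% left 0 B cell markers, averaging probe sets left 1 MHC class I gene, and the 6 arrays alone called 8 ribosomal protein genes. Leaving out 1 control array gave 5583 to 5704 called genes and 1294 to 1317 at 2-fold, with 0 to 1 ribosome biogenesis, 1 to 2 replication, 1 to 2 mitosis and 0 to 1 B cell genes at 2-fold. The directions of 13 genes turned. With arrays centred these were ELANE (-0.21), CEBPA (-0.042), CIITA (-0.076), TAP1 (-0.11), NCL (-0.19), HBB (-0.10), MS4A1 (-0.14), EPCAM (-0.18), KMT2A (-0.084), MX1 (-0.15) and IFIT1 (-0.12). With probe sets averaged they were RUNX1 (-0.0101) and KMT2A (-0.45), and with array weights ELANE (-0.0031). Leaving out 1 array turned ELANE, HBB, MS4A1, EPCAM, VCAN, MX1 and IFIT1, with ranges of -0.041 to 0.036 for ELANE, -0.017 to 0.21 for HBB, -0.088 to 0.16 for MS4A1, -0.038 to 0.10 for EPCAM, -0.19 to 0.0091 for VCAN, -0.0089 to 0.14 for MX1 and -0.0502 to 0.17 for IFIT1. None of the turned genes differed by 1 or more, and the cause was not tested. Each probe set tested by itself gave 8950 calls. With the replicate number as a block (replicate block), 5946 genes were called and 1292 at 2-fold; deviations of same-numbered arrays correlated at -0.01, -0.02 and 0.003, so the numbers were not taken to pair the arrays. RMA intensities carry no count, and differences of genes in the dimmest 25% of the dimmer line, 226 of the 1292, are the least certain in size.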

Other observations

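KMT2A and MLLT3, the partners of the fusion gene known in MOLM-14, were looked at after their values were seen. MLLT3 was higher in MOLM-14 in both of its probe sets, by 1.53 and 1.44. KMT2A was read by 5 probe sets: 3 gave 0.12, -0.05 and -0.10 with no call, and 2 gave -0.96 and -1.24, lower in MOLM-14 and called by limma. The array does not tell fused from unfused transcripts, and the part of the gene each probe set reads was not looked up.

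ZNF91 led to a look at the zinc finger genes named ZNF with a number, a family also chosen after values were seen. Of 214 measured, 124 were called by limma (57.9%, against 49.4% of all genes), 47 higher in MOLM-14 and 77 in HL-60. At 2-fold there were 31 (14.5%, against 10.6% of all genes), 10 in MOLM-14 (4.67% against 6.73%) and 21 in HL-60 (9.81% against 3.89%), with a median difference of -0.13 that became -0.33 if arrays were centred.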
